A study of Caenorhabditis elegans with 2 samples.

Results

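The genes for histone-modifying enzymes and Polycomb proteins were examined for binding of ZAG-1, a ZEB-class regulator with zinc fingers and a homeodomain that is known from neuron differentiation, in Caenorhabditis elegans larvae of the L1 stage. Membership was set by gene symbol, a rule written with earlier results of these data known, and covered 73 of the 19973 protein-coding genes annotated on WBcel235 (ce11). The symbols start with set-, hda-, jmjd-, sir-2, met-, mes-, mys-, prmt- or lsd-, or are utx-1, spr-5, rbr-2, cbp-1 or hat-1. Chromatin immunoprecipitation and sequencing was done on 2 biological replicates of 1 group, so there was no second condition. Both came from strain OP83, which carries the unc-119(ed3) mutation on chromosome III and the transgene array wgIs83 with eGFP-tagged zag-1, as mixed-sex whole larvae. The sources used here do not give the regulatory sequence of the transgene or the cells in which it was active. In whole larvae, binding in few cells and weak binding in many cells cannot be told apart.

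Histones are marked by enzymes that add methyl or acetyl groups to their tails and by enzymes that remove them. Acetylation and methylation of histone H3 at lysine 4 are known at active promoters, whereas the H3 lysine 27 methylation laid down by Polycomb complexes is known at silent genes. In the worm these enzymes are best known for germline identity, the silencing of repeats and developmental timing, and several also act in neurons.

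Each gene was described by entries of the authors' peak lists whose summit lay closer to its annotated transcription start than to that of any other protein-coding gene, within 5000 bp. For a gene with several annotated transcript starts, the start means the one nearest to the summit, which can lie inside the gene. The pooled list of both replicates holds 30000 entries and is named as peaks and background, so an entry alone is not a called binding site. The optimal list holds the 478 pooled entries of highest signal. The signal value and the −log10 q are the authors' own values, and ranks run from 1 at the highest signal within a list. No source used here gives the formula behind the signal, and values are compared only within a list.

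An optimal peak was assigned to 2 of the 73 genes, cbp-1 and mes-2. That is 2.74% (95% Wilson interval 0.755 to 9.45), beside 2.18% of all protein-coding genes, so the share was near the background. Among genes with any pooled entry the shares were 2 of 49 (4.08%) and 3.46% of 12581. Of the 105 pooled entries assigned to the genes, 2 were optimal (1.90%), beside 1.59% of all pooled entries. A further 2 genes, set-16 and jmjd-1.2, began within 1000 bp of an optimal summit that lay nearer to the start of a divergent neighbour.

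The sequences around these 4 optimal summits are shown because they carry the regions on which the account of these genes turns. Each is the 201 bases centred on the summit, from the plus strand of WBcel235 as given by RefSeq, 5′ to 3′. They lie at chrIII:9765538-9765738 (cbp-1), chrII:14383759-14383959 (mes-2), chrIII:13643629-13643829 (set-16) and chrIV:4660405-4660605 (jmjd-1.2). Capitals mark GAGAGA or CGTCTC on either strand, which overlap each other where they share bases.
cbp-1: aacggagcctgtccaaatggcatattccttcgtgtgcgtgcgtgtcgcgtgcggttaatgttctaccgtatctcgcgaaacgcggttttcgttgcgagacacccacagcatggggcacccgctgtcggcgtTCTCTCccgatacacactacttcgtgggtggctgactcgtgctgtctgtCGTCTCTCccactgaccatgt
mes-2: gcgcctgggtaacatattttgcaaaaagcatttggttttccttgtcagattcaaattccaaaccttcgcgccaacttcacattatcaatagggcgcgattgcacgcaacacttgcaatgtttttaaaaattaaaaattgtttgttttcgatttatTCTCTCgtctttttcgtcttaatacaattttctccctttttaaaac
set-16: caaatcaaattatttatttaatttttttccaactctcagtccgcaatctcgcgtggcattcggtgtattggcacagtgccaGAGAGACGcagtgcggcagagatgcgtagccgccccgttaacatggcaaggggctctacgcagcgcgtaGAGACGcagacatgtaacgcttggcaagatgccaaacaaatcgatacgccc
jmjd-1.2: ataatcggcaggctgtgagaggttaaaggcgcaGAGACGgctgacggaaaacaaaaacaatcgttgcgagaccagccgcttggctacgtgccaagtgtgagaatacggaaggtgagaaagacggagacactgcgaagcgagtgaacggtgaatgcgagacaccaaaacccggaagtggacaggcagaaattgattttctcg

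cbp-1 encodes the worm ortholog of the CBP and p300 acetyltransferases, coactivators that acetylate histones at enhancers and promoters. Its optimal peak (III 9765466 to 9765809) had a pooled signal of 56.2, rank 72, and a −log10 q of 2.58. The overlapping entry had a signal of 26.8 in replicate 1, rank 46, and of 29.3 in replicate 2, rank 169. It was high in both replicates. Of the genes' assigned optimal peaks it alone was among the 478 highest ranked entries of each, beside 42.9% of all optimal peaks. The summit lay in intergenic sequence 871 bp upstream of the start of cbp-1 (III 9766509 to 9774825, plus strand), with no other protein-coding start within 1000 bp. A second pooled entry, nearer to the start at 286 bp upstream, ranked 16874 with a signal of 9.71. The window of the optimal summit had a GC content of 57.2% and, as printed above, held GAGAGA and CGTCTC.

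mes-2 encodes the worm ortholog of the Polycomb methyltransferase EZH2, the catalytic subunit for H3 lysine 27 methylation. Its optimal peak (II 14383687 to 14384030) had a pooled signal of 36.2, rank 275, and a −log10 q of 2.26, with the summit 114 bp upstream of the start (II 14383973 to 14388454, plus strand). In replicate 1 the overlapping entry had a signal of 25.7 and ranked 52. In replicate 2 the higher of 2 overlapping entries had a signal of 7.37 and ranked 15492. The peak was thus high in replicate 1 and low in replicate 2, so a high rank was seen in 1 library alone. The sources used here do not say how such a peak came to be in the optimal list. Its window had a GC content of 34.8% and held GAGAGA but not CGTCTC.

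set-16 encodes an H3 lysine 4 methyltransferase of the MLL class. The optimal peak at III 13643557 to 13643900 had a pooled signal of 56.6, rank 71, just above that of cbp-1. Its summit lay 187 bp upstream of the start of set-16 (plus strand) and 159 bp from the start of drr-2 on the minus strand, to which it was assigned. Its replicate ranks were 775 and 36, so it was higher placed in replicate 2. The pooled entry assigned to set-16 itself lay 4362 bp downstream of the start, in an intron, and ranked 16841 with a signal of 9.71.

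jmjd-1.2 encodes a jumonji demethylase of H3 lysine 9 and lysine 27, known from longevity signalled by mitochondrial stress in neurons. It had no pooled entry of its own. The optimal peak at IV 4660333 to 4660676, with a pooled signal of 38.3 and rank 237, had its summit 486 bp upstream of jmjd-1.2 (plus strand) and 304 bp from the start of F29B9.11 on the minus strand. It ranked 346 in replicate 1 and 345 in replicate 2, within the highest 478 of both. Of the 4 optimal summits at these genes, 2 met that criterion in both replicates, those of cbp-1 and jmjd-1.2. It was met by 42.9% of all optimal peaks. With every start within 1000 bp counted, 4 of the 73 genes had an optimal peak, beside 2.17% of all genes.

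**Figure D1:**
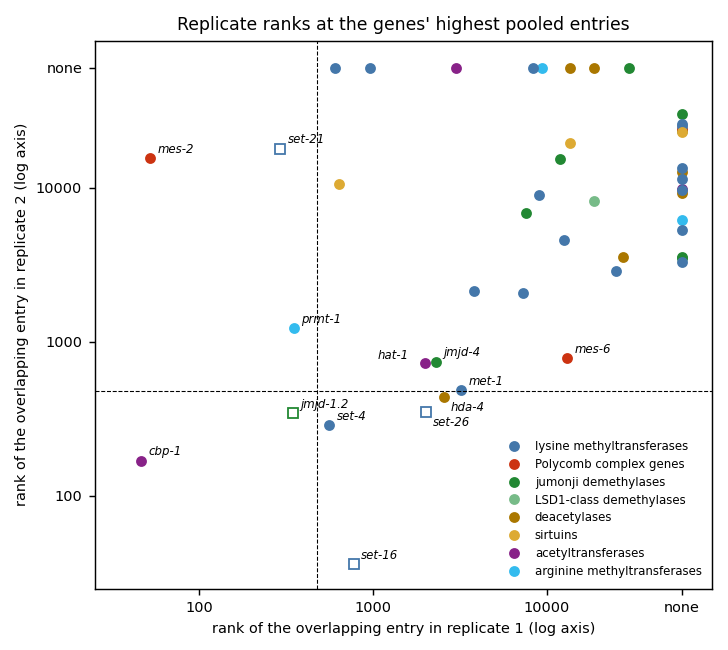
Rank in replicate 1 (x, log axis) and replicate 2 (y, log axis) of the entries that overlap each gene's highest pooled entry (circles) or the 4 summits within 1000 bp of a gene's start that were assigned to a neighbour (open squares). Colours give the enzyme class, dashed lines mark rank 478, "none" means no overlapping entry, and names mark the highest ranked genes. cbp-1 and jmjd-1.2 lie inside both lines, whereas mes-2 ranks 52 in replicate 1 and 15492 in replicate 2.

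Just below the optimal list, whose lowest signal was 29.6, stood 6 more of the genes with a highest entry among the 1000 highest ranked. They were set-4, hda-4, prmt-1, hat-1, met-1 and jmjd-4. With cbp-1 and mes-2 this made 8 of 73 genes (11.0%, 95% Wilson interval 5.66 to 20.2), beside 4.31% of all protein-coding genes. The limit of 1000 was chosen after the values were seen. To rank 3000 the count was 15 of 73 (20.5%, 12.9 to 31.2), beside 11.7% of all genes. The difference from all genes was not tested. The genes were also longer, with a median of 3976 bp among those with a pooled entry and 2428 bp among all genes with one, and the part of length in these counts was not tested.

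set-4 encodes a methyltransferase of H4 lysine 20. Its highest entry (II 6331464 to 6331807) had a pooled signal of 28.7, rank 516, with signals of 11.8 in replicate 1 (rank 561) and 25.1 in replicate 2 (rank 287). It was well placed in both replicates and lay 295 bp upstream of the start. hda-4, a class IIa deacetylase gene known from muscle and sensory neuron gene regulation, had its highest entry (X 16726850 to 16727193) 2537 bp upstream of the start in intergenic sequence. The pooled signal was 28.1, rank 544, with signals of 8.19 in replicate 1 (rank 2550) and 21.3 in replicate 2 (rank 440). hda-4 had 12 pooled entries, the most of the 73 genes, spread over its introns, its upstream flank and 1 coding exon, and the next of them ranked 2356.

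prmt-1 encodes the main type I arginine methyltransferase. Its highest entry (V 20269659 to 20270002) lay 120 bp upstream of its start and 276 bp from that of cdkr-3, with a pooled signal of 27.9, rank 549. The signals were 13.4 in replicate 1 (rank 352) and 15.7 in replicate 2 (rank 1228). hat-1, the ortholog of the histone acetyltransferase HAT1, had a signal of 27.1, rank 590, at III 10407311 to 10407654, 235 bp upstream of its start and inside an intron of M03C11.3. Its signals were 8.68 in replicate 1 (rank 1989) and 18.1 in replicate 2 (rank 733).

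met-1 encodes an H3 lysine 36 methyltransferase of the SETD2 class. Its highest entry (I 4253977 to 4254320) had its summit 48 bp upstream of the start, with a pooled signal of 25.2, rank 728, and signals of 7.74 in replicate 1 (rank 3216) and 20.6 in replicate 2 (rank 484). jmjd-4, of the jumonji family, had a pooled signal of 23.9, rank 839, at III 10333927 to 10334270. The summit lay 81 bp upstream of jmjd-4 and 178 bp from the start of mev-1, which encodes a subunit of succinate dehydrogenase. The signals were 8.39 in replicate 1 (rank 2297) and 18.0 in replicate 2 (rank 744). For 6 of these 8 leading genes the entry was among the 3000 highest ranked in both replicates, beside 568 of the 861 genes with an entry to rank 1000.

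**Figure D2:**
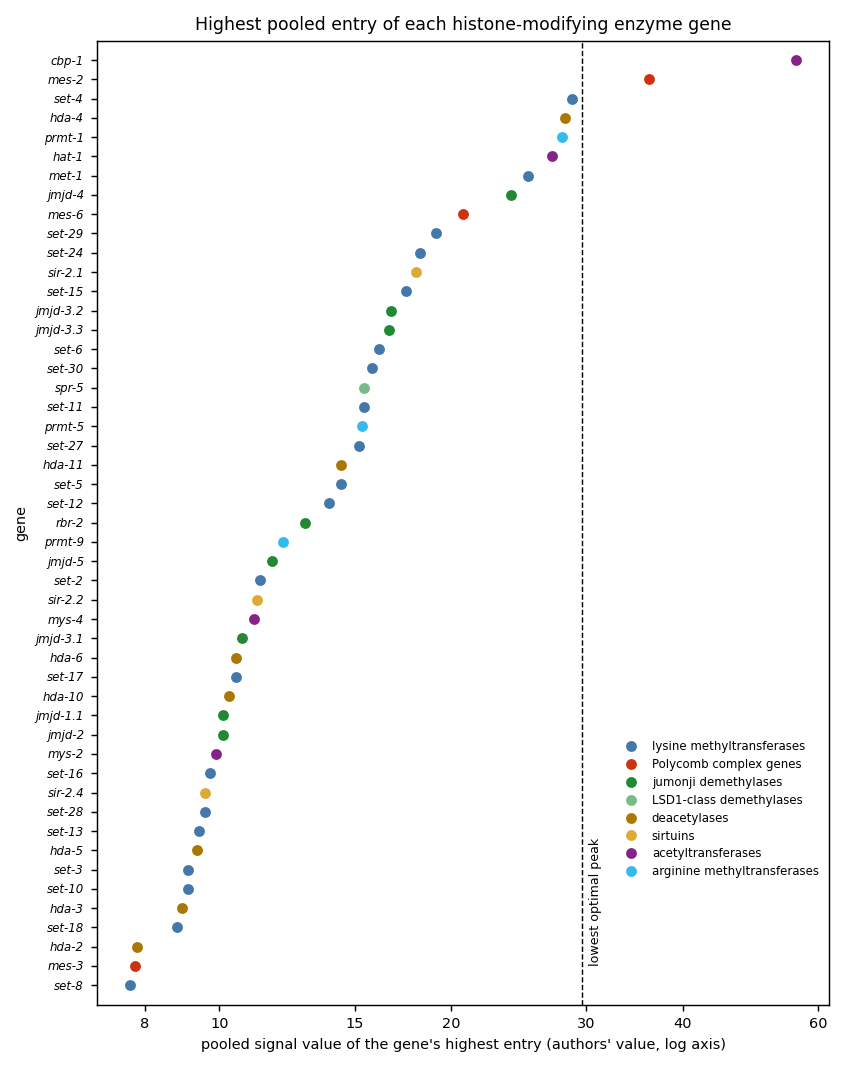
Pooled signal value (x, log axis) of the highest entry of each of the 49 genes with a pooled entry, ordered by rank and coloured by enzyme class. The dashed line marks the lowest optimal peak at 29.6. Only cbp-1 at 56.2 and mes-2 at 36.2 lie to its right, and 6 genes follow between 23.9 and 28.7.

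All 8 leading summits lay upstream of the start they were assigned to, 6 of them in the TSS window, which is the sequence within 500 bp of a protein-coding start. Among the 15 genes to rank 3000, 14 summits were upstream and 9 in a TSS window. Among the 34 genes past that rank, 17 were upstream and 13 in a TSS window. The upstream share over all genes was not counted by rank, so the upstream counts have no background at like ranks. Of all assigned entries, 51.2% to rank 1000, 42.2% to rank 3000 and 26.6% past rank 3000 were in a TSS window. A larger share near starts at higher ranks was thus also seen over the whole list. Over all 105 entries of the genes, 57.1% were upstream beside 52.8% of all assigned entries, and 35.2% (95% Wilson interval 26.8 to 44.7) were in a TSS window beside 28.2% of 27569. Introns held 29.5% beside 27.7%, coding exons 9.52% beside 9.32% and UTRs 2.86% beside 3.60%. Intergenic sequence outside the TSS window held 21.0% beside 28.8%.

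**Figure D3:**
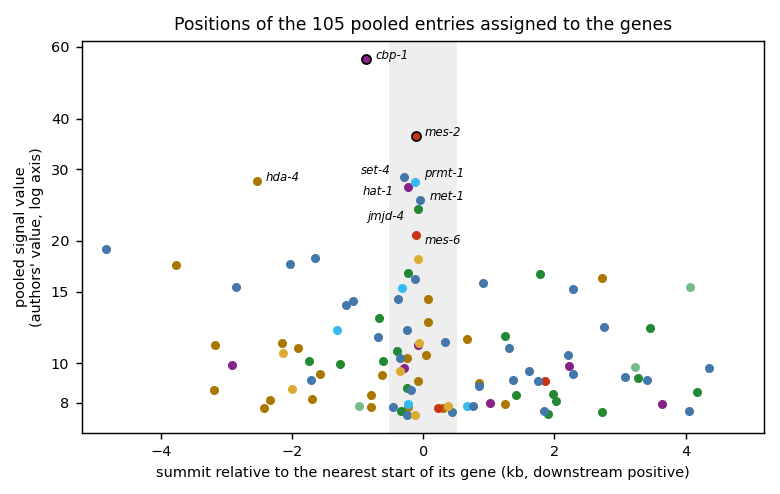
Position of each of the 105 pooled entries (x, kb from the nearest start of its gene, downstream positive) against pooled signal value (y, log axis), coloured by enzyme class as in the plot of highest signal values. Grey marks 500 bp on either side of the start, and black rims mark the 2 optimal peaks. The entries above a signal of 23 all lie upstream, from 48 bp for met-1 to 2537 bp for hda-4.

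Some leading summits lay near the starts of more than 1 gene. Of the 8 leading summits, 4 had the start of another gene within 1000 bp (those of prmt-1, hat-1, met-1 and jmjd-4), beside 26.1% of the 861 genes with an entry to rank 1000 that had starts of more than 1 gene there. In addition to set-16 and jmjd-1.2, 2 genes began within 1000 bp of a summit to rank 3000 that was assigned to a neighbour. The start of set-26, whose product binds H3 lysine 4 methylation, lay 591 bp from a summit of rank 504 (signal 29.0, replicate ranks 2008 and 352), 139 bp from tsr-2. The start of set-21 lay 165 bp from a summit of rank 951 (signal 23.0, replicate ranks 292 and 17933), 89 bp from the ribosomal protein gene rpl-7A. At set-16, jmjd-1.2, set-26 and set-21 the gene and its neighbour were transcribed away from each other, and the gene itself had no assigned entry to rank 3000. The data do not say which start such a region serves.

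The letters at the leading summits differed among the genes. The windows of hda-4, hat-1, jmjd-4 and prmt-1 are given to show windows with CGTCTC beside one with neither motif. They are 201 bases from the plus strand of WBcel235 (RefSeq), at chrX:16726922-16727122, chrIII:10407383-10407583, chrIII:10333999-10334199 and chrV:20269731-20269931, with capitals as above.
hda-4: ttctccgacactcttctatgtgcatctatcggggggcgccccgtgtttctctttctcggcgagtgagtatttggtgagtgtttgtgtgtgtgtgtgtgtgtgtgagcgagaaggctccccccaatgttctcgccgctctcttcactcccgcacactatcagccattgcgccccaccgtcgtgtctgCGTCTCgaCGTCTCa
hat-1: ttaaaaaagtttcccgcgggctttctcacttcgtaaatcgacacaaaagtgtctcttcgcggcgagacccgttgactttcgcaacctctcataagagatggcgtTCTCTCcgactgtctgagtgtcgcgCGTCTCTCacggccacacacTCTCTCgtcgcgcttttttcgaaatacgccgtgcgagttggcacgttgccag
jmjd-4: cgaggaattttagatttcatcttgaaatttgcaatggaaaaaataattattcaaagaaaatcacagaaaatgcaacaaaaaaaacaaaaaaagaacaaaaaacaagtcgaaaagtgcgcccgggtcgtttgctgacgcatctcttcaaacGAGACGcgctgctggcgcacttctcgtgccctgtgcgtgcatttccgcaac
prmt-1: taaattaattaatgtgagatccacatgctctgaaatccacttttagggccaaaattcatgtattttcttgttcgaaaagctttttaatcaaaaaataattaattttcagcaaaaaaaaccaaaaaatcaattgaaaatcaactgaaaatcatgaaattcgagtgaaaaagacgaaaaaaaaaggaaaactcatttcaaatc

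CGTCTC was searched on both strands within 100 bp of each summit. It occurred in 5 of the 8 entries to rank 1000 (62.5%, 95% Wilson interval 30.6 to 86.3), those of cbp-1, hda-4, hat-1, met-1 and jmjd-4, and in 1 of the 97 others (1.03%). Over all assigned entries it was in 29.7% to rank 1000 and 5.55% past it. GAGAGA, searched likewise, was in 4 of the 8, at cbp-1, mes-2, set-4 and hat-1, and in 13 of the 97 (13.4%), beside 42.7% and 12.1% of all assigned entries. The E-box CAGGTA or CAGGTG, known for proteins of the ZEB class, was in 0 of the 8 and in 9 of the 97 (9.28%), beside 3.94% and 8.06%. CAGCTG was in 0 of the 8 and 2 of the 97, beside 4.57% and 3.29%. At the limit of rank 3000, CGTCTC was in 5 of 16 entries (31.2%, 14.2 to 55.6), beside 18.2% of all assigned entries, a smaller difference. GAGAGA was there in 4 of 16 (interval 10.2 to 49.5%), beside 29.6%, a difference of the opposite sign. The 8 windows had GC contents from 25.9% at prmt-1 to 57.2% at cbp-1, with a median of 50.2%. The highest entries of the other 41 genes had a median of 30.8%. Among all genes these medians were 41.3% and 32.8%, and the part of GC content in the motif counts was not tested.

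Among the Polycomb genes, the values differed between subunits. In addition to mes-2, the EED ortholog mes-6 had an entry of rank 1290 (IV 8510999 to 8511342, signal 20.7), 113 bp upstream of its start. Its signal was 5.07 in replicate 1 (rank 13173) and 17.8 in replicate 2 (rank 780), the opposite order to mes-2. mes-3, the worm-specific subunit of the complex, had an entry 228 bp downstream of its start that ranked 27719, with a signal of 7.77 and an overlapping entry in replicate 2 alone (rank 24150). So the genes of the 3 subunits stood at ranks 275, 1290 and 27719, and no 2 of them were high in the same replicate. mes-4, an H3 lysine 36 methyltransferase gene that acts with them in the germline, had no pooled entry, and its nearest pooled summit lay 4759 bp away. Nor had mes-1, which shares the name but encodes a receptor tyrosine kinase-like protein.

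For the class counts that follow, 63.0% of all protein-coding genes had a pooled entry, and the median highest rank over those was 10069. An entry to rank 1000 was assigned to 4.31% of all protein-coding genes and one to rank 3000 to 11.7%. Differences of the classes from each other and from all genes were not tested. The lysine methyltransferases of the set- and met- names had a pooled entry at 20 of 33 genes, with a median highest rank of 5040.5, 2 genes to rank 1000 and 5 to rank 3000. Besides set-4 and met-1 the latter were set-29 (rank 1674), set-24 (rank 1979) and set-15 (rank 2265), each 1653 bp or more from the start. set-2, the SET1 enzyme of the COMPASS complex, had an entry that ranked 10923, with no overlap in replicate 1 and rank 25220 in replicate 2. Its summit (III 4925775) lay in an intron, 325 bp downstream of a transcript start inside the gene (III 4922427 to 4930204, minus strand). The H3 lysine 9 methyltransferase genes met-2 and set-25 and the H4 lysine 20 enzyme gene set-1 were among the 13 without an entry. The others were set-9, set-14, set-19, set-20, set-21, set-22, set-23, set-26, set-31 and set-32. A gene without an assigned entry could still hold a pooled summit nearer to the start of another gene. Such summits lay inside met-2 (rank 1436), set-25 (rank 2512), set-1 and set-23.

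Genes classed by symbol as jumonji demethylases, whatever the activity of each product, had an entry at 8 of 10. Of these jmjd-4, jmjd-3.2 (rank 2655) and jmjd-3.3 (rank 2761) were within rank 3000. The H3 lysine 27 demethylase gene utx-1 and jmjd-1.2 had none, and the H3 lysine 4 demethylase gene rbr-2 ranked 6957. Of the LSD1-class demethylase genes, spr-5 ranked 3691, 4070 bp from its start, and lsd-1 had none. Deacetylase genes had an entry at 7 of 8, with a median highest rank of 14275, beside 10069 over all genes with an entry. Apart from hda-4 the highest was hda-11 (rank 4701), and hda-1, which encodes the main class I enzyme, had none.

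Among the sirtuin genes 3 of 4 had an entry, and sir-2.3 had none. The highest was at sir-2.1, the SIRT1 ortholog, with rank 2078 and a signal of 18.0, 77 bp upstream of the start (replicate ranks 636 and 10544). Acetyltransferase genes had an entry at 4 of 5, with cbp-1 and hat-1 ahead of mys-4 (rank 11648) and mys-2 (rank 16114). mys-1, the TIP60 ortholog, had none. Arginine methyltransferase genes had an entry at 3 of 6, with prmt-1 ahead of prmt-5 (rank 3812) and prmt-9 (rank 8827), and none at prmt-4, prmt-6 and prmt-7.

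**Figure D4:**
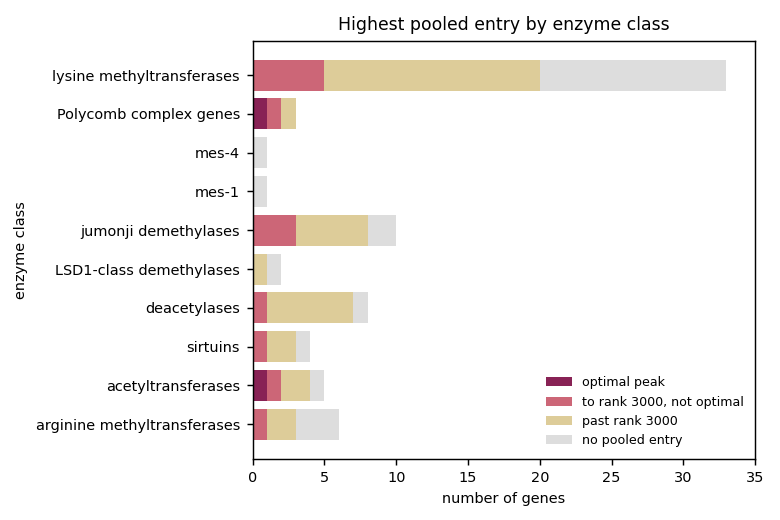
Number of genes (x) in each enzyme class (y) by their highest pooled entry, from an optimal peak to none. Only the Polycomb and acetyltransferase classes hold an optimal peak, with 1 each, and 13 of 33 lysine methyltransferase genes have no pooled entry. Over all protein-coding genes, 2.18% have an optimal peak and 63.0% a pooled entry.

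A pooled entry was assigned to 49 of the 73 genes (67.1%, 95% Wilson interval 55.7 to 76.8), beside 63.0% of all protein-coding genes. Of the 49 genes, 22 had 1 entry, 12 had 2, 10 had 3 and 5 had 4 or more. The median of the genes' highest ranks was 6957 (quartiles 2265 and 16114), beside 10069 (4242 and 18112) over all genes with an entry. The shift was smaller in the list of each replicate taken alone, where the medians were 9019 beside 9977 in replicate 1 and 9762 beside 10067 in replicate 2.

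**Figure D5:**
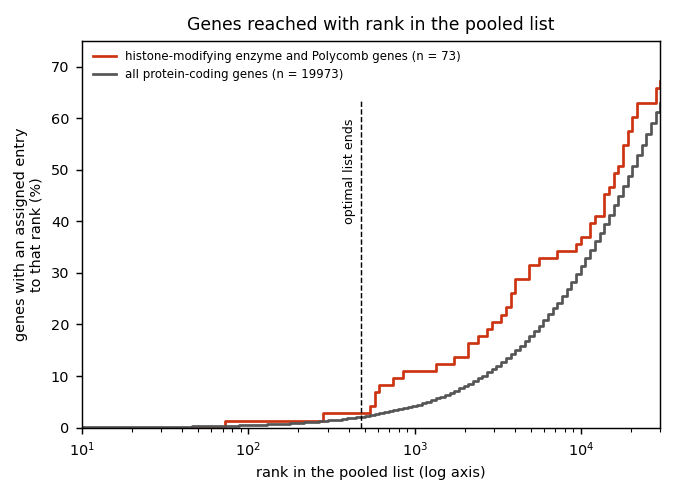
Share of genes (y, %) with an assigned entry to a given rank in the pooled list (x, log axis), for the 73 genes (red) and all 19973 protein-coding genes (grey). The lines are close where the optimal list ends (2.74% and 2.18%), apart at rank 1000 (11.0% and 4.31%) and end at 67.1% and 63.0%.

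Overlap with the replicate lists was counted for all entries of the genes. Of the 105 entries, 50.5% overlapped an entry of replicate 1, 67.6% one of replicate 2 and 27.6% both, beside 54.1%, 68.1% and, for both, 9591 of 30000 of all pooled entries. For the highest entries of the 15 genes to rank 3000, 14 overlapped entries of both replicates (93.3%, beside 82.4% of such entries over all genes). For the 34 genes past that rank it was 6 (17.6%, beside 29.0%). Across the 29 entries found in both replicates the ranks had a Spearman's rho of 0.44, beside 0.26 over 9591 pooled entries. The points share libraries, and some share an overlapping entry.

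The 478 highest ranked entries of each replicate alone were assigned to 3 of the 73 genes in replicate 1 (cbp-1, mes-2 and prmt-1) and to 3 in replicate 2 (cbp-1, set-4 and hda-4), beside 2.13% of all genes in each. cbp-1 was the 1 gene in both, beside 0.971% of all genes. The 24 genes without a pooled entry were not all empty in the replicates. Entries were assigned to 10 of them in replicate 1, to 7 in replicate 2 and to 3 in both, none among the 3000 highest ranked of its list. A pooled summit lay within 1000 bp of the start of 3 of the 24, nearer to another gene, and within 5000 bp of 18. For 8 of the 24 a pooled summit lay inside the gene body. These counts were not made over all genes without a pooled entry, so they have no background beside them.

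A wider list of chromatin genes under other names held partners of these enzymes, remodelling subunits, DREAM genes, heterochromatin readers and further methyltransferase and demethylase genes. It was chosen with earlier results of these data known, and the part of that choice in its counts was not tested. Of its 73 annotated genes, 11 (15.1%) had an optimal peak, beside 2 of the 73 genes described above and 2.18% of all genes, and the difference was not tested. The highest was sor-1, a Polycomb-like silencing gene in the worm, with rank 50, a signal of 61.0 and replicate ranks of 131 and 40. sor-3, of the same silencing group, ranked 369. bet-2, a bromodomain protein gene, ranked 107, and ruvb-2, an ATPase gene of acetyltransferase and remodelling complexes, ranked 373.

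Partners of deacetylases had an optimal peak at 2 of 11 genes, dcp-66 of the NuRD group (rank 231) and the CoREST gene rcor-1 (rank 380). Remodelling subunits had one at 3 of 11, pbrm-1 (rank 300), let-526 (rank 340) and swsn-3 (rank 408). The peak of let-526 ranked 156 in replicate 2 but 7573 in replicate 1. The remaining ones were efl-1 (rank 443), an E2F gene of the DREAM group, and the demethylase gene jhdm-1 (rank 429), whose replicate ranks were 23290 and 310. None of 9 COMPASS partners, of 8 heterochromatin readers and H3 lysine 9 partners or of 7 further methyltransferase genes had one.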

How the data were processed

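The authors deposited peak lists on ce11 for each of 2 replicates, for both pooled and as an optimal list thresholded on the irreproducible discovery rate, derived from alignments and a control, per the labels and release notes. Column 7 is a signal value and column 9 a −log10 q value, both as deposited by the authors. The sources used here do not name the aligner, caller or cutoff, nor read depth. ce10 lists were not used.

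Entries were ranked by signal and assigned from the summit (start plus column 10) to the nearest protein-coding transcript start of Ensembl release 115 within 5000 bp. All entries lay inside the WBcel235 chromosomes. Replicate entries were matched by an overlap of 1 bp or more, keeping the higher ranked. Motifs were counted within 100 bp of summits. Wilson intervals (95%) cover counting error only. Assignment and overlap were tested on simulated data. No test was run: 1 group gives no comparison, and resampling of entries was not used.

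Members, classes and partner lists were chosen with earlier results of these data known. Named were genes with an optimal peak, those to rank 3000, the mes- genes, the leader of each class, and genes without an entry by class. Other genes were named after their values were seen (set-16, jmjd-1.2, set-26, set-21, set-2, rbr-2, spr-5, hda-11, mys-4, mys-2, prmt-5 and prmt-9). 2 partner symbols, swsn-5 and swsn-8, matched no annotated gene. Analyses used Python 3.11.15, numpy 2.4.6, scipy 1.17.1 and matplotlib 3.10.9.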

Additional observations from a re-analysis of the deposited data

How the results depend on the processing

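The number of genes with an optimal peak was 2, beside 2.18% of all protein-coding genes. With every start within 1000 bp it was 4 (cbp-1, mes-2, set-16 and jmjd-1.2), beside 2.17%. With every start within 5000 bp, an alternative chosen after seeing the data, it was 6 (with set-1 and set-14 added), beside 5.50%. In the optimal peaks above the median signal it was 1 (cbp-1), beside 1.11%. It was 3 without replicate 1 (cbp-1, set-4 and hda-4) and 3 without replicate 2 (cbp-1, mes-2 and prmt-1), so mes-2 was lost without replicate 1. The median highest rank was 10923 (all genes 12048) with starts within 1000 bp and 10112 (all genes 11412) with every gene there, and ranged from 9019 to 9762 without a replicate. The TSS-window share was 21.9% with 250 bp and 48.6% with 1000 bp, beside 15.6% and 47.4% of all assigned entries, and ranged from 30.6 to 35.4% without a replicate. GAGAGA was in 8.57% of windows of 50 bp and 35.2% of 250 bp on each side, beside 7.21% and 26.6% of all, and ranged from 15.6 to 17.6% without a replicate. Wider windows hold more by construction. The number with a pooled entry was 39 to 51, beside 46.2 to 65.1% of all protein-coding genes across the same settings. No paired analysis was possible because the replicates form 1 group. Read depth is unknown, so a missing entry does not show that a gene was unbound.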
